A study of Mus musculus with 55 samples.

Results

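The regions described here are stretches of the mouse genome that carried a called peak of histone H3 lysine 4 monomethylation (H3K4me1) in both lung PRM libraries and in neither lung PRMK library. Merging the 4 lung H3K4me1 peak lists wherever peaks shared at least 1 bp gave 51793 union regions, of which 7292 met this rule and are called lost. The lost regions were 14.1% of the union. The rule used the H3K4me1 calls of these 4 libraries, so the absence of signal in PRMK is the definition of the set and not a finding: the members were chosen by these calls.

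PRM stands for mouse organoid samples that carried guides against Trp53 and Rb1, each on a puromycin-selectable mCherry plasmid, together with a retroviral Myc and luciferase plasmid. PRMK lung samples added a guide against Kmt2c. They were transplanted into the left lung lobe of recipient mice, and lung PRM, lung PRMK and liver PRM organoids were taken from those mice, so host cells may accompany the engineered ones. Every group carried the Trp53 and Rb1 guides and Myc. H3K4me1, H3K4me2, H3K4me3 and KMT2C were profiled by CUT&Tag, in which a tagging transposase is tethered to an antibody. Open chromatin was profiled by ATAC-seq on organoids after 3 days in culture, and RNA by sequencing. Each peak group held 2 libraries and each RNA group held 3, and nothing in the labels says that replicates came from separate animals. With 2 libraries against 2, the smallest p of a two-sided exact permutation test is 1 in 3, so peak groups are given as values per library with no test.

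Several features of the labels bear on the values. The PRMK H3K4me2, H3K4me3 and KMT2C libraries carried an added guide, against Meis2 in replicate 1 and scrambled in replicate 2. The PRMK RNA samples list no Kmt2c guide, and their labels name another results table than the one holding their columns. The labels mention a strand-specific kit for PRM RNA and not for PRMK RNA, so a difference in preparation cannot be told apart from genotype.

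H3K4me1 marks enhancers, stretches away from gene starts that raise transcription, and also the flanks of active promoters, whose centres carry H3K4me3. KMT2C, also called MLL3, is the catalytic subunit of a COMPASS-like complex that places H3K4me1, largely at enhancers, together with its close relative KMT2D. In small cell lung cancer, a neuroendocrine tumour that typically lacks Trp53 and Rb1 function, KMT2C is among the chromatin regulators found mutated. Kmt2c RNA itself was 85.1, 84.4 and 105 CPM (counts scaled to the library total) in the 3 PRMK libraries and 113, 187 and 67.6 CPM in the 3 PRM libraries. These groups overlap, and a guide-induced small deletion need not lower RNA, so Kmt2c RNA does not check the labels.

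Most lost regions lay away from gene starts, but 321 of the 7292 (4.40%) came within 1 kb of the start of a protein-coding gene. Sequences of 4 such starts are shown because they lie inside the strongest promoter lost regions, and they show how far these promoters differ in base composition. Each is the 250 bases before the RefSeq start (GRCm38.p6, the assembly of the mm10 build), read 5′ to 3′ on the strand of the gene, with CpG dinucleotides in capitals. All 4 genes are on the plus strand.
Dab2ip (chr2:35582590-35582839): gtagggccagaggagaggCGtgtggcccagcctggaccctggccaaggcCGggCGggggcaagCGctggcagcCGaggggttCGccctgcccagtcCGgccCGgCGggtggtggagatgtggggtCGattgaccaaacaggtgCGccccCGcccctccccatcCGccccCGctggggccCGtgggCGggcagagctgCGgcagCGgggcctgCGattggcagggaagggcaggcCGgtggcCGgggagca
Slc30a10 (chr1:185454598-185454847): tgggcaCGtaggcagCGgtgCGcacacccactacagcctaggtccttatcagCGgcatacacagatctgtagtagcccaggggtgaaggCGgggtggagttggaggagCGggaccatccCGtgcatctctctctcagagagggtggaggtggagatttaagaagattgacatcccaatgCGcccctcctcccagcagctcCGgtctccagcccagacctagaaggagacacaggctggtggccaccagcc
Adcyap1r1 (chr6:55451728-55451977): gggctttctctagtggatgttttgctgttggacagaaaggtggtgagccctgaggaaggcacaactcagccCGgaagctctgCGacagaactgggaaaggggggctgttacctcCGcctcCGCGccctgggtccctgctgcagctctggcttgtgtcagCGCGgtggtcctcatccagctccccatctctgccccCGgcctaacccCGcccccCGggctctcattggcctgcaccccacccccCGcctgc
Sprr2a1 (chr3:92215585-92215834): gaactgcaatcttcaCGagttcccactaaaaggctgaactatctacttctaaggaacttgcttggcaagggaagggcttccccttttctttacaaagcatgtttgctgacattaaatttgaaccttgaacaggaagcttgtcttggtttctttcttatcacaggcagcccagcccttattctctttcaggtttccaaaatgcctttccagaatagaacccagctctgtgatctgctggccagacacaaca
The Dab2ip stretch holds 21 CpG dinucleotides, Adcyap1r1 11, Slc30a10 9 and Sprr2a1 1. Dab2ip encodes a Ras GTPase-activating protein, Slc30a10 a manganese exporter, Adcyap1r1 the receptor of the neuropeptide PACAP, and Sprr2a1 a small proline-rich protein of the cornified envelope.

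Over all RefSeq promoter windows (250 bases before to 50 after a start), 226 shared at least 1 bp with a lost region, and their median CpG count was 10, with quartiles of 4 and 21. The median was 13 in the 1675 windows met by kept regions, those with a peak in all 4 lung libraries, and 13 in all 21263 windows. Short motifs were searched on both strands of these 300 bases. The E-box CAGCTG was present in 23.5% of windows met by lost regions, 22.8% met by kept regions and 15.6% of all windows, and the E-box CAGATG in 12.4%, 14.2% and 14.6%. The forkhead core TGTTTAC was present in 4.42%, 2.21% and 3.00%, the AP-1 core TGANTCA in 6.19%, 7.10% and 6.99%, and the Ets core CCGGAAG in 7.96%, 8.84% and 11.6%. A match describes letters in a window and is not a binding site.

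Lost regions were narrower than kept regions, and weaker in H3K4me1 signal in PRM. Their median width was 3008 bp, against 5916 bp for the 12778 kept regions (24.7% of the union) and 2874 bp for all union regions. Regions with a peak in both PRMK libraries and in neither PRM library had a median width of 2913 bp. The total signal is the summed coverage that SEACR, the peak caller, writes for a peak. Its median over lost regions was 22349 in PRM replicate 1 and 19577 in PRM replicate 2, and over kept regions 54456 and 47168.5. Kept regions join peaks of all lung H3K4me1 lists, and lost regions join those of the PRM lists only. The rule therefore favours greater width and summed signal in kept regions, and its part in this contrast was not tested. Both PRM libraries gave lost regions like values, with a median ratio of replicate 1 to replicate 2 of 1.12. The weakest members had a total of 10472, 10476 and 10482 in PRM replicate 1, close to the lowest total of that list, 10466. Just outside the rule lay regions whose only PRMK peak was close to the lowest listed, with totals of 7726 and 7727 in PRMK replicate 1 or 3944 and 3950 in PRMK replicate 2.

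In number of peaks the PRMK lists were not shorter than the PRM lists. They held 38075 and 36911 peaks against 30399 and 27746, and reached down to totals of 7726 and 3939. They covered 147.5 and 77.42 Mb, against 124.7 and 111.4 Mb in PRM. Median peak widths were 2734 and 1419 bp in PRMK and 2974 and 2944 bp in PRM, so PRMK replicate 2 had narrower peaks. In kept regions, which were chosen for having PRMK peaks, the PRMK totals had medians of 1.05 and 0.357 times the PRM total, so the 2 PRMK libraries differ in scale. On the PRM scale their lowest totals were 7372 and 11039.4, against 10466 and 10690 in the PRM lists. The signal of lost regions in PRM was at least 2 times that lowest total for 78.6% (PRMK replicate 1) and 46.1% (PRMK replicate 2). Whether weak PRMK peaks were missed was not tested. With each list shortened to the length of the smallest, that of PRM replicate 2, 8786 regions were lost. Shortening takes more peaks from the PRMK lists than from the PRM lists, so it cannot show whether PRMK peaks were missed. The median distance from a lost region to the nearest PRMK peak was 17.2 kb. Such a peak lay within 1 kb of 4.29% of lost regions, and none lay within 50 kb of 27.8%.

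Several single regions carried far more signal than the median. The strongest and widest was chr7:115744603-115768896 (mm10), 24294 bp inside the gene Sox6, which encodes an SoxD-class transcription factor. Its total was 832939 in PRM replicate 1 and 692519 in PRM replicate 2, and the nearest PRMK peak was 9.27 kb away. It had an ATAC peak in both PRM libraries and in neither PRMK library, H3K4me1 in both liver libraries, and no H3K4me2, H3K4me3 or PRM KMT2C peak. Next came chr17:62811936-62835188 in Efna5, which encodes ephrin-A5, a membrane-bound guidance ligand. That region of 23253 bp had totals of 426260 and 380304 and a KMT2C peak in all 4 lung libraries. Its KMT2C totals were 103760 and 82275 in PRM and 1800 and 2872 in PRMK.

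The region over the Sprr2a1 start, chr3:92210901-92217335, had totals of 405601 and 370668, with KMT2C in all 4 lung libraries and no lung ATAC peak. Its KMT2C totals were 42087 and 36005 in PRM and 14568 and 15596 in PRMK. Sprr2 genes are near-identical copies, so reads there may be shared with other members. In Dlgap4, which encodes a postsynaptic scaffold protein, chr2:156642511-156659704 had totals of 429317 and 330471, with KMT2C again in all 4. The KMT2C totals there were 29131 and 20086 in PRM and 17591 and 34698 in PRMK. At Accsl, chr2:93900773-93912712 had totals of 415961 and 328263. Outside gene spans, chr7:108984145-108997318 lay 13.6 kb from the start of Tub, a gene of neuronal signalling, with totals of 383876 and 328086. It had KMT2C peaks in all 4 lung libraries, with KMT2C totals of 24555 and 30742 in PRM and 1831 and 2683 in PRMK. The lowest KMT2C totals listed were 8299 and 5363 in PRM and 1766 and 1998 in PRMK. A call in all 4 libraries therefore does not mean like KMT2C signal. PRMK samples carried a Kmt2c guide, and whether a KMT2C peak in PRMK marks bound KMT2C was not tested. The ATAC peak of the Tub region was listed in PRM replicate 1 alone. All 6 of these regions had H3K4me1 in both liver PRM libraries.

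Lost regions fell more often outside genes than other H3K4me1 regions. The span of a protein-coding gene touched 54.4% of them, against 71.1% of kept and 64.0% of all union regions. A start lay within 1 kb of 4.40% of lost regions, 14.3% of kept regions and 9.84% of all union regions. Starts were known for 17492 of 21887 protein-coding genes and for none of the 511 on chromosome 18, where 307 lost regions lie, so distances are upper limits. The shares of union regions that were lost ranged over the autosomes from 9.39% on chromosome 11 to 18.9% on chromosome 19, with 13.9% over all autosomes. On chromosome X 179 of 763 regions (23.5%) were lost, and on chromosome Y 23 of 54 (42.6%). Of the Y regions, 33 and 39 had a peak in the PRM libraries and 19 and 15 in the PRMK libraries.

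Lost regions also occurred in unbroken runs, in which no other H3K4me1 region of any lung library came between them. Runs of 2 or more held 50.4% of lost regions, and runs of 5 or more held 480 regions in 76 runs. Runs of kept or gained regions were not counted, so whether lost regions cluster more than others was not tested. The longest runs had 11 regions each. One covered 334.5 kb at Rcn1 and Them7 (chr2:105051741-105386251), with summed totals of 741888 and 637699. Another covered 341.8 kb of the Fbxw13 to Fbxw28 cluster of F-box genes (chr9:109182524-109524280), whose members are closely related copies. The other run of 11 covered Tmem132b and Tmem132c, which encode neuronal membrane proteins. A run of 10 lay in Sox6 and another of 10 in Nckap5.

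**Figure D1:**
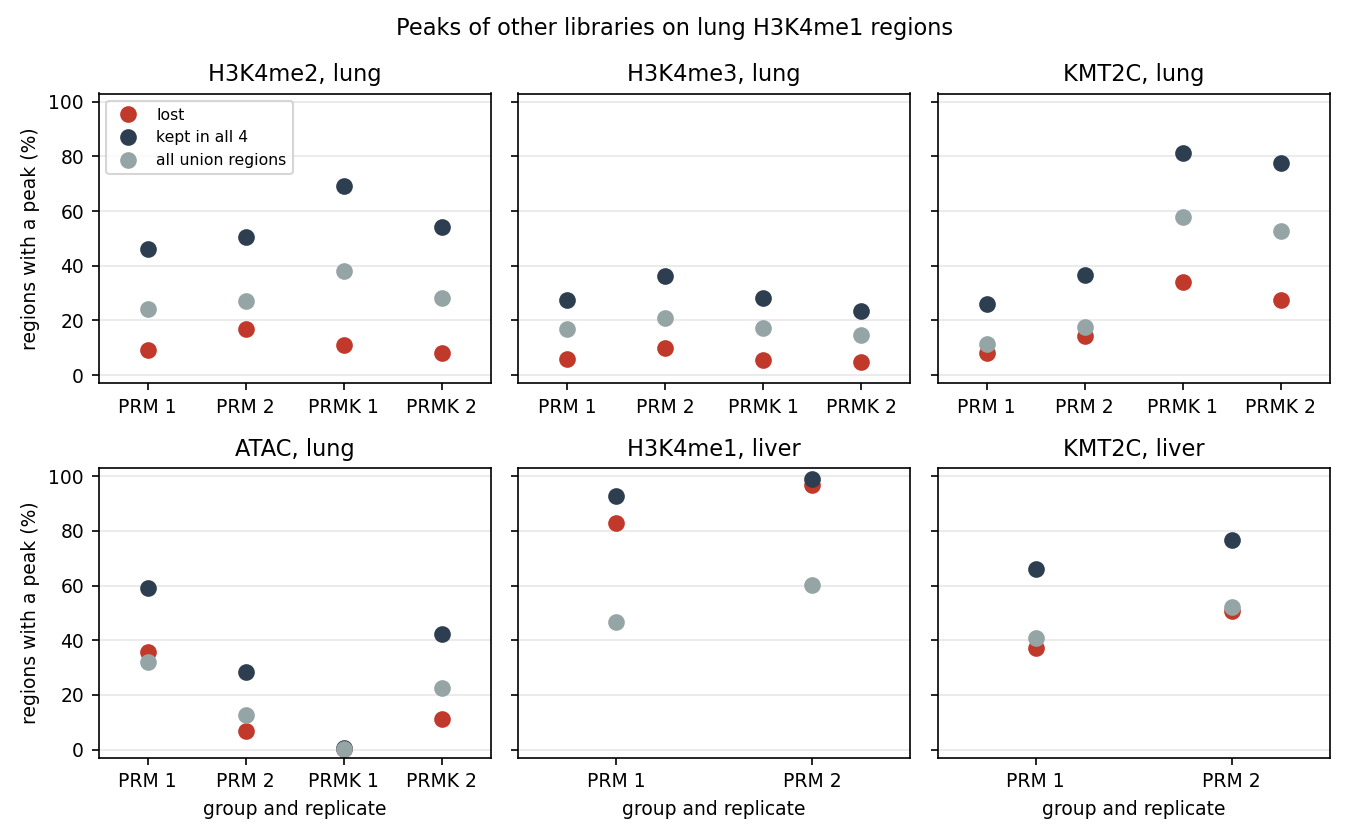
Share of lung H3K4me1 regions (vertical axis, percent) with a peak in each library of another layer (horizontal axis), for the 7292 lost regions, the 12778 kept regions and all 51793 union regions. The lost regions lie below the kept regions in every library, and liver H3K4me1 is the only layer in which they lie above all union regions in both libraries.

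H3K4me2 and H3K4me3, which the rule did not use, were sparse on lost regions in PRM as well as in PRMK. H3K4me2, which marks both enhancers and promoters, had a peak on 9.24% (95% exact binomial interval 8.59 to 9.93) and 16.7% (15.9 to 17.6) of lost regions in the 2 PRM libraries and on 11.1% and 7.94% in the 2 PRMK libraries. These groups overlap, and intervals cover the counting of regions only. Of kept regions, 45.9% and 50.6% had H3K4me2 in PRM, and 69.1% and 54.2% in PRMK. Of all union regions, 24.2% and 27.2% had H3K4me2 in PRM, and 38.1% and 28.3% in PRMK. H3K4me3 lay on 5.94% and 9.82% of lost regions in PRM and 5.55% and 4.64% in PRMK, against 27.5% and 36.2% of kept regions in PRM and 28.0% and 23.5% in PRMK. The H3K4me3 shares of all union regions were 16.9% and 20.7% in PRM and 17.4% and 14.8% in PRMK. The share was lower in lost than in kept regions in all 22 libraries of the 7 layers compared, over all widths and among regions 2000 to 4000 bp wide, a band chosen after the data were seen. Against all union regions it was lower in 19 of 22 libraries over all widths and in 16 of 22 in that band.

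Few lost regions had another mark in both PRM libraries, and those that had it lacked it in PRMK more often than other regions did. H3K4me2 was in both PRM and neither PRMK library on 109 lost regions (1.49%), against 0.72% of all union regions. Only 529 lost regions had H3K4me2 in both PRM libraries, so this was 20.6% of those that could lose it, against 3.71% of such union regions and 2.25% of such kept regions. For H3K4me3 the pattern held for 40 lost regions (0.549%), against 0.863% of all union regions. That was 10.6% of the 377 lost regions with H3K4me3 in both PRM libraries, against 5.84% of such union regions and 6.49% of such kept regions. Among regions 2000 to 4000 bp wide these shares were 19.9%, 4.64% and 3.70% for H3K4me2 and 11.5%, 5.87% and 9.45% for H3K4me3. Shares among regions able to lose a mark were added after seeing the data and carry no test. The reverse pattern, a peak in both PRMK and neither PRM library, was rarer: 39 lost regions for H3K4me2 (0.535%, against 3.85% of all union regions), 2 for H3K4me3 (0.0274%, against 0.371%) and 0 for ATAC (against 0.00772%). No H3K4me2 peak of any of the 4 libraries lay on 78.1% of lost and 55.8% of all union regions, and no H3K4me3 peak on 89.1% and 75.7%. Among PRM libraries, 3766 lost regions (51.6%) carried H3K4me1 alone, without H3K4me2, H3K4me3, KMT2C or ATAC peaks. The same held for 32.4% of the 23825 union regions with H3K4me1 in both PRM libraries, and for 20.5% of kept regions.

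The few regions that lost H3K4me2 as well included long intronic and intergenic stretches. The strongest was chr4:31402534-31420774, 18241 bp wide and 543 kb from the nearest known start, of Map3k7, with totals of 268173 and 244690. It had ATAC peaks in both PRM libraries and neither PRMK library. Others lay in Sgip1, which encodes an endocytic adaptor (totals 258657 and 211640), in Zbtb20, a zinc-finger factor (213470 and 192950), in Adcy2, an adenylate cyclase (165038 and 148606), and in Slx4ip (148381 and 116058). Each of these 5 regions had H3K4me1 in both liver libraries.

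Of the 5 strongest regions that lost H3K4me3 as well, 3 lay within 1 kb of a start. One was chr6:114035790-114041965, whose edge lies 115 bp from a start of Atp2b2, a plasma membrane calcium pump, with H3K4me1 totals of 128540 and 105210. Another was chr8:90348588-90355427 at Tox3, an HMG-box gene, with totals of 92856 and 82093 and with no KMT2C or ATAC peak in any lung library. One far from a start was chr11:44830958-44836981 inside Ebf1, a helix-loop-helix factor, with totals of 65351 and 60482 and the nearest PRMK H3K4me1 peak 266 kb away. The other 2 lay on chromosome 14 at 4930555G01Rik and Gm3488, members of a family of near-identical copies, so their reads cannot be placed with certainty.

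KMT2C peaks met a minority of lost regions in PRM. They lay on 7.98% (7.37 to 8.63) and 14.2% (13.4 to 15) of lost regions in the 2 PRM libraries, against 26.2% and 36.5% of kept regions and 11.5% and 17.5% of all union regions. In PRMK the share of lost regions was higher, 34.2% and 27.6%, and so was that of kept regions, 81.1% and 77.7%, and of all union regions, 57.7% and 52.6%. The PRMK KMT2C lists held 187682 and 134561 peaks against 9949 and 16681 in PRM, so list length moves with the group, and its part in these shares was not tested. The median total of a KMT2C peak was 2426 and 2752 in PRMK, against 13719 and 9022 in PRM. Because PRMK samples carried a Kmt2c guide, their KMT2C peaks are given as calls and not as bound KMT2C. With at least 25% of a region covered, the mean PRMK share was 14.2% in place of 30.9%. KMT2C was in both PRMK and neither PRM library on 849 lost regions (11.6%), against 28.5% of all union regions. KMT2C was in both PRM and neither PRMK library on 123 lost regions (1.69%), against 0.67% of all union regions, and on 63 kept regions (0.493%). Of the 525 lost regions with KMT2C in both PRM libraries, this was 23.4%, against 6.38% of such union regions and 2.00% of such kept regions. The strongest lost region of that kind among those named was chr13:36485827-36495492 in Fars2, a mitochondrial phenylalanyl-tRNA synthetase gene, with totals of 357197 and 293974. It also had ATAC peaks in both PRM libraries and in neither PRMK library.

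The shares of lost regions with open chromatin had the same order as the lengths of the ATAC lists. An ATAC peak lay on 35.8% of lost regions in PRM replicate 1 and 6.83% in PRM replicate 2, and on 0.0686% in PRMK replicate 1 and 11.2% in PRMK replicate 2. The lists held 64596, 19834, 593 and 54201 peaks in that order. The shares of all union regions were 32.1%, 12.7%, 0.336% and 22.4%, so lost regions lay above the union in PRM replicate 1 and below it in the other 3 libraries. The 2 PRM shares lie on both sides of the larger PRMK share, so the groups overlap, and PRMK replicate 1 is too short a list to show absence. With at least 25% of a region covered, the mean ATAC share was 5.67% in PRM in place of 21.3% and 0.418% in PRMK in place of 5.65%. Of the PRMK replicate 2 and PRM replicate 1 lists, which are nearest in length, the first met 11.2% of lost and 42.2% of kept regions, and the second 35.8% of lost and 59.1% of kept regions. ATAC was in both PRM and neither PRMK library on 230 lost regions (3.15%), against 3.39% of all union regions. Of the 356 lost regions with ATAC in both PRM libraries, this was 64.6%, against 32.7% of such union regions and 28.0% of such kept regions. Among regions 2000 to 4000 bp wide the shares were 64.9% of lost, 41.9% of union and 42.7% of kept regions.

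Lost regions were also split into 4 sets of 1823 by mean PRM total. Their median width went from 2290 bp in the weakest set to 4751 bp in the strongest, and wider regions meet any peak list more often. An ATAC peak of PRM replicate 1 lay on 26.0% of the weakest set and 53.7% of the strongest. Over the same sets KMT2C in PRM replicate 2 went from 10.0% to 22.1% and H3K4me2 from 12.9% to 22.9%, while H3K4me3 in that library stayed between 8.72% and 12.4%. The 321 promoter regions differed from the rest. H3K4me3 lay on 57.9% and 61.7% of them in PRM and on 58.3% and 52.7% in PRMK. The absence of PRMK H3K4me1 calls at these starts is the rule itself and not a finding. H3K4me3, which the rule did not use, was called in like shares of both groups. The Dab2ip region chr2:35582032-35599415, with H3K4me1 totals of 343705 and 292118, had H3K4me2 in all 4 libraries and H3K4me3 in 3 of 4. The Slc30a10 region chr1:185448245-185465527, with totals of 280069 and 236015, showed the same pattern.

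Liver PRM samples carried H3K4me1 on most lost regions. A liver peak lay on 82.9% (82.1 to 83.8) of lost regions in liver replicate 1 and on 96.9% (96.5 to 97.3) in liver replicate 2, and on 82.2% in both. Of regions gained in PRMK, those with a peak in both PRMK and neither PRM library (8075 regions, 15.6% of the union), 4.64% and 16.3% had a liver peak. Of all union regions 46.9% and 60.2% did. Liver KMT2C lay on 37.1% and 50.7% of lost regions, against 65.9% and 76.7% of kept and 40.7% and 52.2% of all union regions. The liver ATAC lists held 345 and 141 peaks and met 8 and 1 lost regions.

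**Figure D2:**
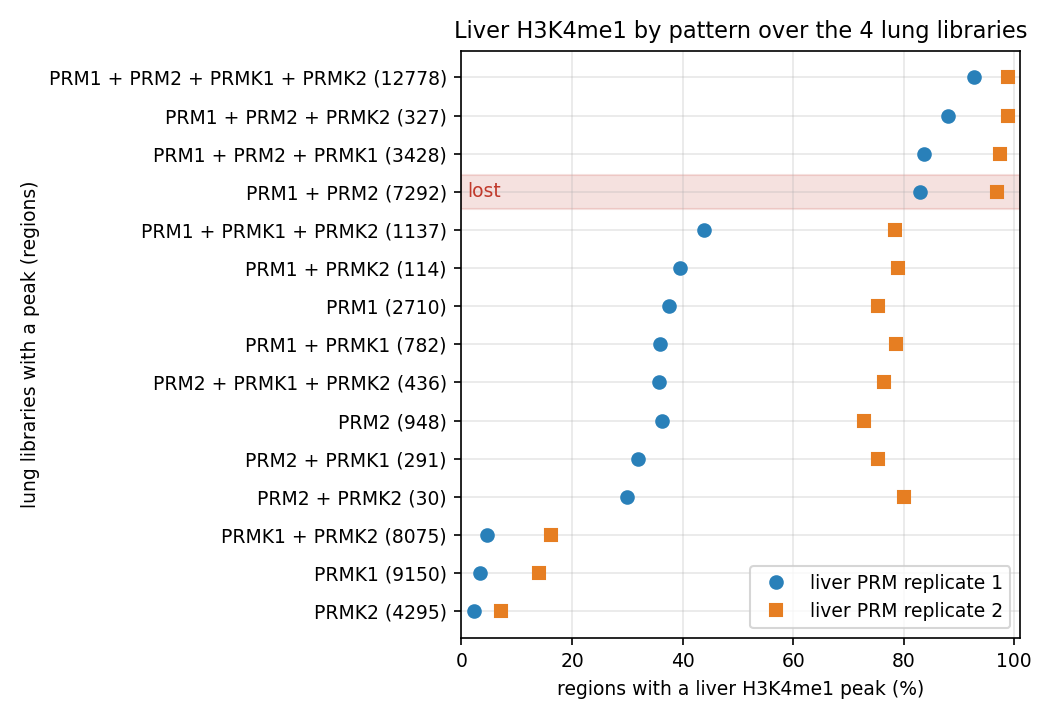
Share of union regions with a liver PRM H3K4me1 peak (horizontal axis, percent), for each combination of lung libraries with a peak (vertical axis, number of regions in brackets). Regions with both PRM libraries lie at 82.9% or more in liver replicate 1 whether or not a PRMK library has a peak, and regions with PRMK peaks alone lie at 16.3% or less in either liver library.

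Liver H3K4me1 was called more often on regions with both PRM libraries than with 1 alone, and differed less between the PRMK calls. Among regions with both PRM libraries, the share with peaks in both liver libraries was 82.2% with no PRMK peak, 83.3% with PRMK replicate 1 only, 88.1% with PRMK replicate 2 only and 92.5% with both. With PRM replicate 1 alone it was 34.7% and with PRM replicate 2 alone 33.1%. Regions of these 2 kinds had median PRM totals of 12460.5 and 12084, near the lowest listed, 10466 and 10690. Among the 4 sets of lost regions by PRM total, liver replicate 1 met 60.1% of the weakest and 99.5% of the strongest. The part of PRM signal in the liver shares was not tested. Only 175 lost regions (2.40%) had no H3K4me1 peak in either liver library. The strongest of these was weak, chr16:22524253-22528310 in Dgkg, a diacylglycerol kinase gene, with totals of 26239 and 21516. Others lay between genes, 448.5 kb from the start of Rbfox1 (27537 and 18247) and 131 kb from that of Tinag (23756 and 18528), in Igf1r, the insulin-like growth factor 1 receptor (18186 and 23856), and in Kcnj6, a potassium channel gene (18677 and 21943).

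The nearest known start within 100 kb assigned 4100 lost regions to 2656 protein-coding genes, 15.2% of the 17492 with a start. One lost region was assigned to 1772 genes, 2 to 558 genes, and 3 or more to 326 genes. Genes with 3 or more were long, with a median span of 80.2 kb against 16.9 kb for all genes with a start. Sox6 had the most, 17 lost regions beside 6 kept and none gained. Their totals ranged from 11218 to 832939 in PRM replicate 1 and from 12405 to 692519 in PRM replicate 2, and 13 of the 17 had H3K4me1 in both liver libraries.

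**Figure D3:**
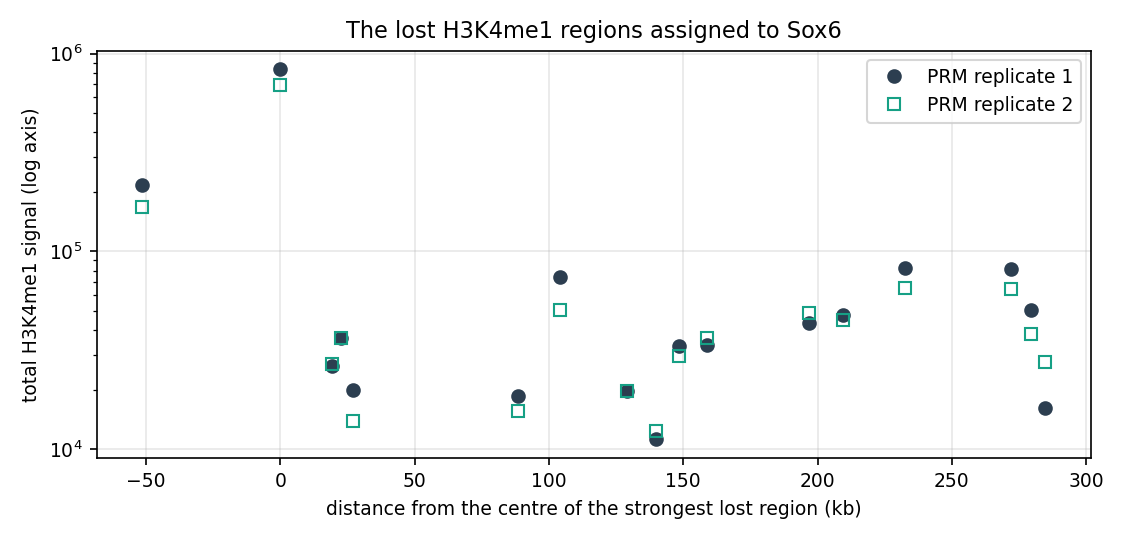
Total H3K4me1 signal (vertical log axis) of the 17 lost regions assigned to Sox6 in each PRM library, by distance in kb from the centre of the strongest one. Both PRM libraries give each region like totals, and the strongest stands at 832939 and 692519.

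After Sox6 came 9 other genes. Lypd6, a modulator of nicotinic receptors and Wnt signalling, had 9, with summed totals of 309376 and 288739. Frmd4a, a cell polarity scaffold, had 8 beside 6 kept and 4 gained, and Asic2, an acid-sensing channel, had 8 beside none kept. Tmem108, Ebf3 (a helix-loop-helix factor), Grik3 (a kainate receptor), Selenop (a selenium carrier) and Pde4b (a phosphodiesterase) had 7 each, and Accsl had 6. None of these 10 genes except Frmd4a had a gained region. The 7 Tmem108 regions summed to 756869 and 674551, and the 7 Ebf3 regions to 616124 and 512633.

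**Figure D4:**
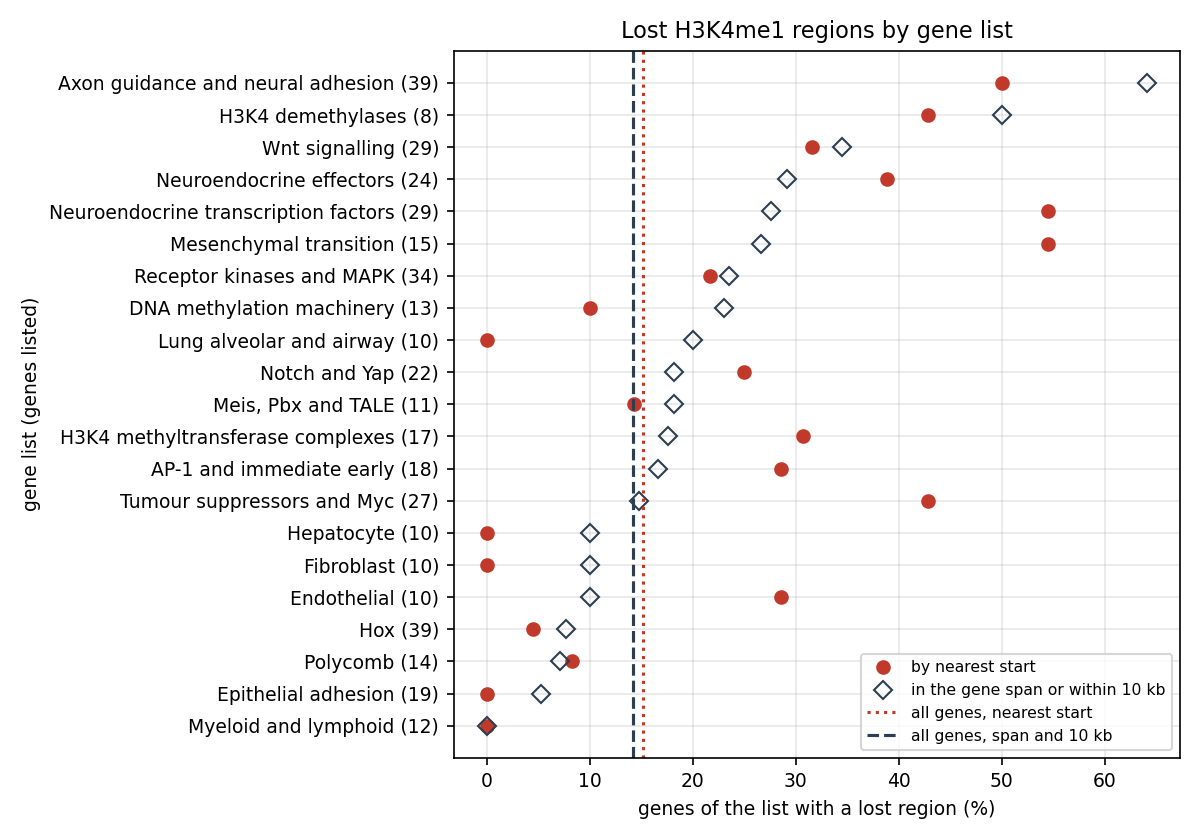
Percent of each gene list with a lost region (horizontal axis), by nearest start (filled points) and by gene span and 10 kb (open points), with vertical lines for all protein-coding genes (15.2% and 14.3%). Right of both lines lie the axon guidance, neuroendocrine, mesenchymal transition, Notch and Yap, Wnt and receptor kinase lists. The AP-1, tumour suppressor, H3K4 methyltransferase and H3K4 demethylase lists lie there too. By span, the tumour suppressor (14.8%), AP-1 (16.7%), H3K4 methyltransferase (17.65%) and Notch and Yap (18.2%) lists lie close to the line for all genes. Left of both lie the epithelial adhesion, Polycomb, Hox, hepatocyte, fibroblast, and myeloid and lymphoid lists.

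Counts by gene list depend on gene length and on neighbours, and are set beside 15.2% of all genes by nearest start and 14.3% by span and 10 kb. Neuroendocrine transcription factors had a lost region for 12 of 22 genes with a start, and for 8 of 29 by span. They included Sox2 and Sox1 with 2 each, Foxa1 with 2, and Nkx2-1, Prox1, Isl1, Nkx2-2, Pou3f2, Sox11, Myt1, Myt1l and Nfia with 1 each. A gained region was also assigned to 12 of 22 genes of this list, against 20.4% of all genes with a start. The Nkx2-1 region, with totals of 55924 and 48940, lay 1.08 kb from the start of this lung lineage factor. Neuroendocrine effectors, the granins, hormone convertases and synaptic genes, had 7 of 18, led by Dlk1, a Notch-like ligand, with 5 (summed totals 288280 and 230806) and Pcsk2, a prohormone convertase, with 4.

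Axon guidance and neural adhesion genes had 16 of 32 by start and 25 of 39 by span, on a median span of 363 kb, far above the 17.2 kb of all genes. Among ligands, Efna5 had 4 (500734 and 441050), Slit2 had 1 and Sema5a had 1. Among receptors, the ephrin receptor genes Epha3 had 4, Epha4 3 and Ephb1 1, Robo1 had 2 (290232 and 238120), and Nrp2, a coreceptor of semaphorins, had 1. In the Notch and Yap list 4 of 16 genes had a lost region by start, and 4 of 22 by span. The ligand Jag1 had 5 and no kept region (216290 and 183275), the receptor Notch2 had 4, and Dll1 and Yap1 had 1 each.

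Mesenchymal transition genes had 6 of 11 by start and 4 of 15 by span. Twist2 had 4, Snai1 had 3, both transcription factors that repress epithelial genes, Prrx1 and the receptor Tgfbr2 had 2, and Tgfbr1 and the ligand Tgfb2 had 1. No epithelial adhesion gene with a start had a lost region (0 of 12), and 1 of 19 had one by span. A gained region was assigned to 7 of the 12, against 20.4% of all genes with a start. Such gained shares were not particular to this list. A gained region was assigned to 12 of 19 Wnt, 14 of 23 receptor kinase and MAPK and 11 of 14 AP-1 genes. Of mesenchymal transition genes 2 of 11 had one. Wnt genes had 6 of 19, with 4 for the nuclear effector Lef1 and 3 for the feedback target Axin2. Receptor kinase and MAPK genes had 5 of 23, with 3 for Egfr. AP-1 and immediate early genes had 4 of 14 by start and 3 of 18 by span (16.7%). Tumour suppressor and Myc genes had 9 of 21 by start but 4 of 27 by span (14.8%), near the 14.3% of all genes. Of Hox genes 1 of 22 had a lost region, Hoxd8, and of the Meis, Pbx and TALE list 1 of 7, Meis1.

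Genes of the H3K4 methyltransferase complexes had a lost region for 3 of 17 by span (17.65%, against 14.3% of all genes) and for 4 of 13 by start. These were the subunits Wdr5, with 2, and Rbbp5, Ncoa6 and Paxip1, with 1 each. Kdm1a, Kdm5c and Rcor1 had 1 among the H3K4 demethylase genes (3 of 7). Dnmt3a, a de novo DNA methyltransferase gene, had no lost region among the 10 union regions in its span and 10 kb, of which 4 were kept and none gained. Mbd3 was the only gene of the DNA methylation list with a lost region by nearest start.

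RNA was compared over 13914 genes with the edgeR quasi-likelihood test. At a Benjamini-Hochberg adjusted p of 0.05, none was called (0% in either direction), and the lowest adjusted p was 0.158. At an unadjusted p under 0.05, 978 genes (7.03%) were higher in PRMK and 1406 (10.1%) lower. DESeq2 called 542 genes (3.9%) higher and 676 (4.86%) lower. Without the library PRM4, edgeR called 282 genes (1.98%) higher and 514 (3.61%) lower. Of the lost-region genes tested there, 43 (2.17%) were higher and 76 (3.83%) lower, shares near those of all genes. The total counts ranged from 12013253 to 24123055. The PRM libraries, numbered 4 to 6 here as in the count table, did not resemble each other. Summed CPM of 22 neuroendocrine effector genes was 8473, 3960 and 233 in PRM4, PRM5 and PRM6, against 6630 to 7448 in PRMK. The 17 epithelial adhesion genes summed to 904, 231 and 4059 CPM, against 1408 to 5280 in PRMK. The 9 myeloid and lymphoid genes summed to 534.5, 3.84 and 88.9 CPM in PRM and 526 to 756.5 CPM in PRMK. The 6 lung alveolar and airway genes summed to 124.4, 67.1 and 44.3 CPM in PRM and 213.4, 178.4 and 169.6 CPM in PRMK. These sums did not overlap between the groups, while the endothelial, fibroblast and hepatocyte sums did. No gene of these lists in the table was at 0 in all 6 libraries, and their part in the gene results was not tested. Fewer cells of a type and less RNA per cell cannot be told apart here.

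RNA of genes with a lost region overlapped between the groups, with no gene called by edgeR. The 1944 that passed the filter on low counts, of 2656, had a median log2 fold change (PRMK minus PRM) of -0.12, against -0.02 for all genes tested, and 55.7% of them were below 0, against 51.4%. The median was -0.18 for the 1293 tested genes with a lost and no gained region, -0.19 for the 218 with a promoter lost region and -0.32 for the 236 with 3 or more lost regions. For the 2751 tested genes with a gained region it was 0.10. For the 1944 lost-region genes, the deviation from their own mean over 6 libraries was taken in log2(CPM + 1). Its median was -0.01, 0.04 and -0.01 in PRMK1 to PRMK3 and 0.04, 0.12 and -0.14 in PRM4 to PRM6. The groups overlap, and without PRM5 the median log2 fold change of lost-region genes was -0.02, against -0.00 for all genes.

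At an unadjusted edgeR p under 0.05, 218 lost-region genes (11.2%) were lower and 114 (5.86%) higher. The shares over all genes tested were 10.1% and 7.03%. DESeq2 called 104 lost-region genes (5.35%) lower and 68 (3.50%) higher, against 4.86% and 3.9% of all genes tested. The 3 PRMK values were all below the 3 PRM values for 267 of the 1944 (13.7%), against 14.6% of all genes, and all above for 252 (13%), against 15.1%. The shares of lost-region genes whose groups did not overlap were thus near, and slightly under, those of all genes.

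**Figure D5:**
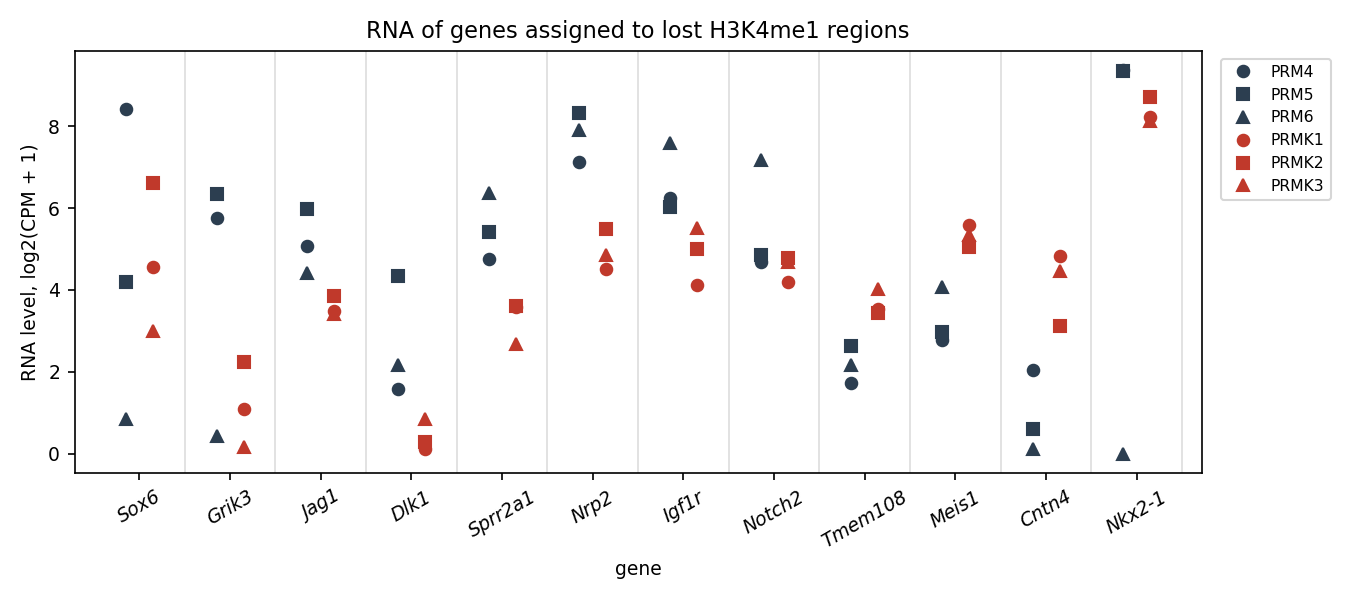
RNA level, log2(CPM + 1), of 12 genes assigned to lost regions in the 3 PRM libraries (dark) and 3 PRMK libraries (red). Jag1, Dlk1, Sprr2a1, Nrp2 and Igf1r lie lower in all 3 PRMK libraries, Tmem108, Meis1 and Cntn4 higher, and Sox6, Grik3, Notch2 and Nkx2-1 overlap.

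Individual genes went both ways. Sox6 RNA was 22.5, 96.3 and 6.97 CPM in PRMK and 345, 17.3 and 0.801 CPM in PRM, so the gene with the most lost regions showed overlapping groups (edgeR log2 fold change -1.53, adjusted p = 0.688). The difference of mean log2(CPM + 1) had the other sign, 0.22 ± 2.43 (SE). Jag1 RNA was 10.3, 13.4 and 9.63 CPM in PRMK and 33.0, 61.7 and 20.4 CPM in PRM. The groups did not overlap, and the difference in log2(CPM + 1) was -1.58 ± 0.47 (SE), with an edgeR adjusted p of 0.204 and a DESeq2 adjusted p of 0.00823.

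Dlk1 RNA was 0.0804, 0.209 and 0.792 CPM in PRMK and 1.99, 19.2 and 3.47 CPM in PRM. Every PRMK value was lower, at levels under 1 CPM (difference -2.28 ± 0.87, edgeR adjusted p = 0.214, DESeq2 adjusted p = 0.00465). Sprr2a1 RNA was 10.9, 11.2 and 5.43 CPM in PRMK and 26.1, 42.0 and 82.3 CPM in PRM. These groups did not overlap either (difference -2.23 ± 0.56, edgeR adjusted p = 0.19, DESeq2 adjusted p = 0.00109), and reads may be shared with other Sprr2 copies.

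Nrp2 had the smallest DESeq2 adjusted p among the named genes, 9.20e-08, with 22.0, 43.7 and 28.1 CPM in PRMK and 140, 318 and 240 CPM in PRM. The groups did not overlap (difference -2.83 ± 0.44), and its edgeR adjusted p was 0.181. Within 100 kb of its start lay 1 lost region, at 96.7 kb, beside 4 kept and 4 gained ones. Of the 3 lost regions inside its span the strongest, with totals of 44410 and 37294, lay 101.1 kb from the start. Grik3 RNA was 1.13, 3.76 and 0.119 CPM in PRMK and 53.5, 80.8 and 0.356 CPM in PRM, so PRM6 alone made the groups overlap (DESeq2 adjusted p = 0.0244, edgeR adjusted p = 0.281).

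Other genes with lost regions were higher in every PRMK library. Tmem108 RNA was 10.6, 9.92 and 15.2 CPM in PRMK and 2.30, 5.16 and 3.47 CPM in PRM (difference 1.50 ± 0.32, edgeR adjusted p = 0.208, DESeq2 adjusted p = 0.00786). Meis1 RNA was 47.3, 32.1 and 39.8 CPM in PRMK and 5.80, 6.89 and 15.7 CPM in PRM. Meis1 had 4 gained regions beside its 1 lost and 2 kept (difference 2.06 ± 0.43, edgeR adjusted p = 0.19, DESeq2 adjusted p = 0.00219). Dnmt3a, a gene with no lost region, was also higher in every PRMK library. Its RNA was 328, 334 and 341 CPM in PRMK and 218, 238 and 102 CPM in PRM (edgeR adjusted p = 0.281, DESeq2 adjusted p = 0.159). Of the same DNA methylation list, Mbd3 was also higher in every PRMK library, while Uhrf1 and Dnmt3b were lower in every one. Dnmt3b RNA was 9.25, 5.22 and 8.36 CPM in PRMK and 17.2, 22.6 and 11.8 CPM in PRM (edgeR adjusted p = 0.253, DESeq2 adjusted p = 0.0575).

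By list, 7 of the 10 tested neuroendocrine factor genes with a lost region had a log2 fold change below 0, with a median of -0.53, against -0.27 over the 23 tested genes of the whole list. Of the 7 tested effector genes 2 were below 0, with a median of 0.25 against 0.53 over the whole list. None of these 17 was called by edgeR, and DESeq2 called 1, Dlk1. The mean log2(CPM + 1) of the neuroendocrine factors was 3.47 in PRM6 and 6.04 to 6.84 in the other 5 libraries, and its part in these medians was not tested. Nkx2-1 RNA was 301, 424 and 278 CPM in PRMK and 666, 655 and 0 CPM in PRM, so PRM6 alone made its groups overlap. Of the 15 tested axon guidance genes 10 were below 0, with a median of -0.31 against 0.75 over the 38 tested genes of the whole list. Of the 5 tested mesenchymal transition genes 4 were below 0, with a median of -0.72 against -0.40 over the whole list.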

How the data were processed

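Members and gene lists were chosen with earlier results of these data known. CUT&Tag reads were aligned with Bowtie2 to mm10 and peaks called with SEACR, per the submitters' processing notes. The deposited lists give total and highest signal per peak, per library. ATAC reads were aligned with Bowtie2 2.2.1, and each deposited gapped peak carries a score. No source used here names the ATAC caller. RNA reads were aligned with STAR 2.6.0a to GRCm38, and the authors deposited raw counts per gene. The authors' TPM, log2 fold changes and p-values were not used.

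The 26 lung and liver peak lists were read in Python 3.11.15 with pandas 2.3.3 and SciPy 1.17.1. Peaks sharing 1 bp were merged, and a library had a peak on a region when 1 bp was shared. The inner open block of each gapped peak was used. Genes came from RefSeq on GRCm38.p6. RNA counts were tested in R 4.3.3 with edgeR 4.0.16 (TMM, filterByExpr, quasi-likelihood) and, as an alternative, DESeq2 1.42.0. CPM were TMM-scaled. The region merging and the RNA test were tested on simulated data. Named regions are the 8 strongest, the 5 widest and up to 5 strongest per class. Named genes are the 10 with most lost regions and the listed genes with a lost region. Sequences around distal peaks were not analysed here. Neither bisulfite, single-cell, treatment nor IgG data were analysed here. Peak depth is not given, and exact intervals cover counting only.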

Additional observations from a re-analysis of the deposited data

How the results depend on the processing

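Of 78 alternative values, 72 stayed within the spread set for them: 1 SD between libraries for shares and the median, and 1.5 times for counts. That count is no measure of robustness. For shares the SD rests on 2 libraries, and several alternatives were subsets of the same lost regions. For the RNA median the SD was 0.0965, while the difference from the median of all genes was -0.09. The number of lost regions was 4040 with the upper 50% of each list by total signal. It was 6617 to 8786 under the other changes of merging, coverage, width and list length, and 7623 to 10862 with each library left out. Requiring 25% of a region to be covered moved the mean share of lost regions with PRMK H3K4me3 from 5.09% to 4.09% and with PRMK KMT2C from 30.9% to 14.2% (n = 2 libraries). It also moved PRM ATAC from 21.3% to 5.67% and PRMK ATAC from 5.65% to 0.418%, both within their SD of 20.5 and 7.89. Genes by nearest start within 20 kb numbered 1343. Genes called in RNA numbered 0 with edgeR, 1218 with DESeq2, and 0 to 796 with each RNA library left out. The 796 came without PRM4, with 2.17% of lost-region genes higher and 3.83% lower, against 1.98% and 3.61% of all genes, and the cause was not tested. The median log2 fold change of lost-region genes ranged from -0.18 without PRMK3 to -0.02 without PRM5, and was -0.12 with DESeq2. No paired analysis was possible because region counts come from no test and the RNA groups share fewer than 2 replicate numbers. Peak signal carries no stated depth or scaling between libraries, so a missing peak may lie under a list's lowest signal. The outer intervals of ATAC gapped peaks and the width band were added after seeing the data and changed none of these shares by more than their SD.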
